A study of Homo sapiens with 6 samples.

Results

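MALAT1, NEAT1, GAS5, SNHG1, SNHG5, SNHG6, SNHG8, ZFAS1, TUG1 and H19 are long noncoding RNAs, chosen by their symbols from the 24462 different symbols, in 25737 entries, that each of 6 human transcriptome libraries listed. All 10 had 1 entry each, and they comprise 2 nuclear RNAs (MALAT1 and NEAT1), 6 snoRNA hosts (GAS5, SNHG1, SNHG5, SNHG6, SNHG8 and ZFAS1), TUG1 and H19. The study asked how transforming growth factor beta 1 (TGF-β1), a secreted factor that can turn epithelial cells fibrotic, alters gene expression in respiratory epithelial cells. A549, an established line of lung carcinoma epithelial cells, and BEAS-2B, an established immortalized line from bronchial epithelium, both with the genotype label WT, were left without TGF-β1 (control) or received it at 1 or 5 ng/mL over 48 h. The treated cells were in RPMI1640 with 1% FBS, whereas the labels do not say which serum level the control cells had, so TGF-β1 and a change of serum cannot be told apart. Each of the 6 conditions had 1 library, so no difference within a line could be checked against the spread between cultures, and p-values are given for 1 fit alone, in which the lines stand in for replicates.

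MALAT1 and NEAT1 stay in the nucleus, where MALAT1 gathers in nuclear speckles, which hold splicing factors, and NEAT1 builds the paraspeckles. The snoRNA hosts are different: their introns are cut into small nucleolar RNAs (snoRNAs), which guide chemical changes on ribosomal RNA, and the spliced host is exported, bound by ribosomes and, for several hosts, destroyed by nonsense-mediated decay. Several hosts start with a pyrimidine stretch like that of the ribosomal protein mRNAs (a 5′-terminal oligopyrimidine or TOP tract), which ties their level to translation and growth.

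Reads came from a QuantSeq 3′-mRNA kit, which primes on runs of A and reads next to them, so the sequence around such runs matters for what a count stands for. The mature 3′ ends of MALAT1 and of long NEAT1 carry no ordinary poly(A) tail. The longest A run inside the longest GENCODE transcript (GRCh38) is shown here, in capitals, within 30 bases, for MALAT1, NEAT1 and TUG1, the RNAs with such runs.
MALAT1: tagcttAAAAAAAAAAAAAgcaaaagatgc
NEAT1: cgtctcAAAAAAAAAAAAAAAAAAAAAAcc
TUG1: agctttAAAAAAAAAAAAAAAAAAggctga
The run in MALAT1 had 13 A at bases 8337 to 8349 of 8708, that in NEAT1 had 22 A at bases 18046 to 18067 of 22743, and that in TUG1 had 18 A at bases 4138 to 4155 of 7469. The 6 hosts and H19 held no run over 6 A, and 3.74% of 198128 transcripts of at least 200 bases held a run of at least 13 A. From which A run or tail the counted reads came was not tested.

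For the hosts, the start of the RNA is shown from 10 bases before to 20 bases from the annotated start (RefSeq, GRCh38.p14), with the run of C and T that begins with a C at that start in capitals. The promoter table held 8 of the 10 RNAs, without NEAT1 and SNHG6.
SNHG5: gcacttcggtCTTTTacgtcggccttcgcg
ZFAS1: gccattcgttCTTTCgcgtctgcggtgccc
SNHG1: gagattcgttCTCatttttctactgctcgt
SNHG8: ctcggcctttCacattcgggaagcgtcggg
GAS5: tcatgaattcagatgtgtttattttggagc
These windows lie at chr6:85678714-85678743 (minus strand, SNHG5), chr20:49278632-49278661 (plus, ZFAS1), chr11:62855866-62855895 (minus, SNHG1), chr4:118278752-118278781 (plus, SNHG8) and chr1:173869026-173869055 (minus, GAS5). For GAS5, the RefSeq start lies 163 bases upstream of the GENCODE gene, so its start differs between the annotations and the window shows the RefSeq one. For ZFAS1, the annotations differ by more: the RefSeq start lies at 49278642, downstream of the GENCODE 5′ end at 49278178. Its window and pyrimidine run are likewise those of the RefSeq start. At the RefSeq starts, 4 of these 5 hosts began with C, against 6 of 20 other snoRNA hosts (30%), 14.7% of 35116 promoters and 66.2% of 77 ribosomal protein genes. A run of at least 5 pyrimidines led by C, searched on the transcribed strand only, was found at the start of SNHG5 and ZFAS1, in 4.07% of all promoters, in 59.7% of the ribosomal protein genes and in 5 of 20 other snoRNA hosts. A match describes the annotated letters and is not a measured start.

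The 6 libraries held between 4120624 and 7841350 counts. Counts were scaled with edgeR's TMM factors (0.927 to 1.08) to a common library size and are called normalized counts. With 1 added, the log2 of this count is the ND value, and FC is the ratio of 2 normalized counts, each plus 1. A gene was selected (upregulated or downregulated, here also "rose" or "fell") at an FC of at least 2 and an ND value of at least 7, a normalized count of 127, in at least 1 of the 2 libraries. A ratio without the added 1 carries an exact 95% Clopper-Pearson interval, called a counting interval, which covers no error beyond that of counting, as reads that carry no molecular identifiers can stem from 1 molecule. Keratins KRT8 and KRT18 were detected in all 6 libraries, the bronchial basal markers KRT5 and KRT14 had 0 or 1 count, and the alveolar surfactant genes SFTPC and SFTPA1 had 0 counts, in A549 as in BEAS-2B cells. KRT17, another basal keratin, had 2, 2 and 8 counts in A549 and 247, 2768 and 3006 counts in BEAS-2B libraries by rising dose, and the basal marker TP63 had 3 to 8 counts in A549 and 0 in BEAS-2B libraries. The summed raw counts of 5 epithelial markers, mostly KRT8 and KRT18, were 21434, 16275 and 11530 in A549 and 1838, 926 and 1002 in BEAS-2B libraries by rising dose. Of the others, CDH1 had 640, 30 and 8 counts in A549 and 2, 0 and 2 in BEAS-2B libraries. EPCAM had 49, 7 and 2 counts in A549 and 0 in each BEAS-2B library, and KRT19 had 41, 22 and 9, and 46, 5 and 19. The summed raw counts of 4 genes that are high in A549 cells (AKR1B10, AKR1C2, ALDH1A1 and GPX2) were 37973, 22047 and 8683 in A549 and 0 to 5 in BEAS-2B libraries. Those of 3 fibroblast markers were 7 to 411, of 2 leukocyte markers 0 to 4 and of 2 endothelial markers 0 to 4. The part of such changes in the results was not tested, and fewer cells of a kind and less RNA per cell cannot be told apart in bulk libraries.

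At 5 ng/mL, 6 of the 10 RNAs passed the selection in A549 cells, 5 downregulated (MALAT1, SNHG5, SNHG6, SNHG8 and ZFAS1) and 1 upregulated (SNHG1). Among all 7115 genes with a sufficient ND value, 33.3% passed, 17.1% downward and 16.1% upward. In BEAS-2B cells, NEAT1, SNHG6 and ZFAS1 fell and none rose, against 19% of 6735 genes that passed, 11.6% downward and 7.33% upward. H19 in A549 cells and SNHG5 in BEAS-2B cells stayed under the ND minimum in this comparison and could not be selected, so 9 RNAs were open to selection in each line. At 1 ng/mL, GAS5 rose and ZFAS1 fell in A549 cells, where 23.5% of all genes passed (10.9% upward, 12.6% downward). GAS5 rose and NEAT1 fell in BEAS-2B cells at this dose, where 14.8% passed (5.66% upward, 9.13% downward). The comparisons at 1 and 5 ng/mL share the control library of the line. Between the doses, SNHG5 and ZFAS1 were lower at 5 than at 1 ng/mL in A549 cells and just passed, which both no longer did with DESeq2 size factors, and SNHG5 passed in BEAS-2B cells. In A549 cells, 3.4% of 6467 genes passed between the doses (1.61% upward, 1.79% downward). The counting interval of the ratio left out 1 for 8 RNAs in A549 and 9 in BEAS-2B cells at 5 ng/mL, where it did so for 81.7% and 73.6% of all genes, so passing it sets these RNAs little apart.

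Over both lines together, SNHG5, SNHG6, SNHG8 and ZFAS1 were lower at 5 ng/mL and GAS5 was higher at 1 ng/mL. These were the calls of edgeR's quasi-likelihood test on all 6 libraries, with the cell line as a block. This fit was chosen after seeing the data. In it, differences between the lines in their response to dose count as error, with 2 residual degrees of freedom. The test also borrows information on variance from the other genes, so its p-values do not rest on these 2 degrees alone. At 5 ng/mL, the log2 FC was -1.95 for ZFAS1 (Benjamini-Hochberg adjusted p of edgeR 0.0117), -1.38 for SNHG6 (0.0121), -1.15 for SNHG8 (0.0286) and -1.17 for SNHG5 (0.0304), against 10.4% of 13579 genes that passed (6.55% downward and 3.81% upward). SNHG1 (log2 FC 0.88, adjusted p of edgeR 0.0562) and NEAT1 (-0.87, 0.0757) missed the threshold of 0.05, and MALAT1, for which the lines differed, had an adjusted p of 0.162. At 1 ng/mL, GAS5 had a log2 FC of 1.14 (adjusted p of edgeR 0.0448), where 2.79% of genes passed (1.13% upward and 1.66% downward), and the other 9 RNAs did not pass. DESeq2 in the same fit also called NEAT1 and SNHG1 at 5 ng/mL (6 RNAs in all) and ZFAS1 at 1 ng/mL (2 in all). It called more of all genes too, 1773 at 5 and 811 at 1 ng/mL, against 1407 and 379 with edgeR. With the counts of the overlapping genes on the other strand added, ZFAS1 no longer passed at 5 ng/mL (log2 FC -0.21, adjusted p of edgeR 0.615). In that sum, the added gene outnumbered ZFAS1 at 5 ng/mL in both lines, so it cannot show what ZFAS1 did alone.

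**Figure D1:**
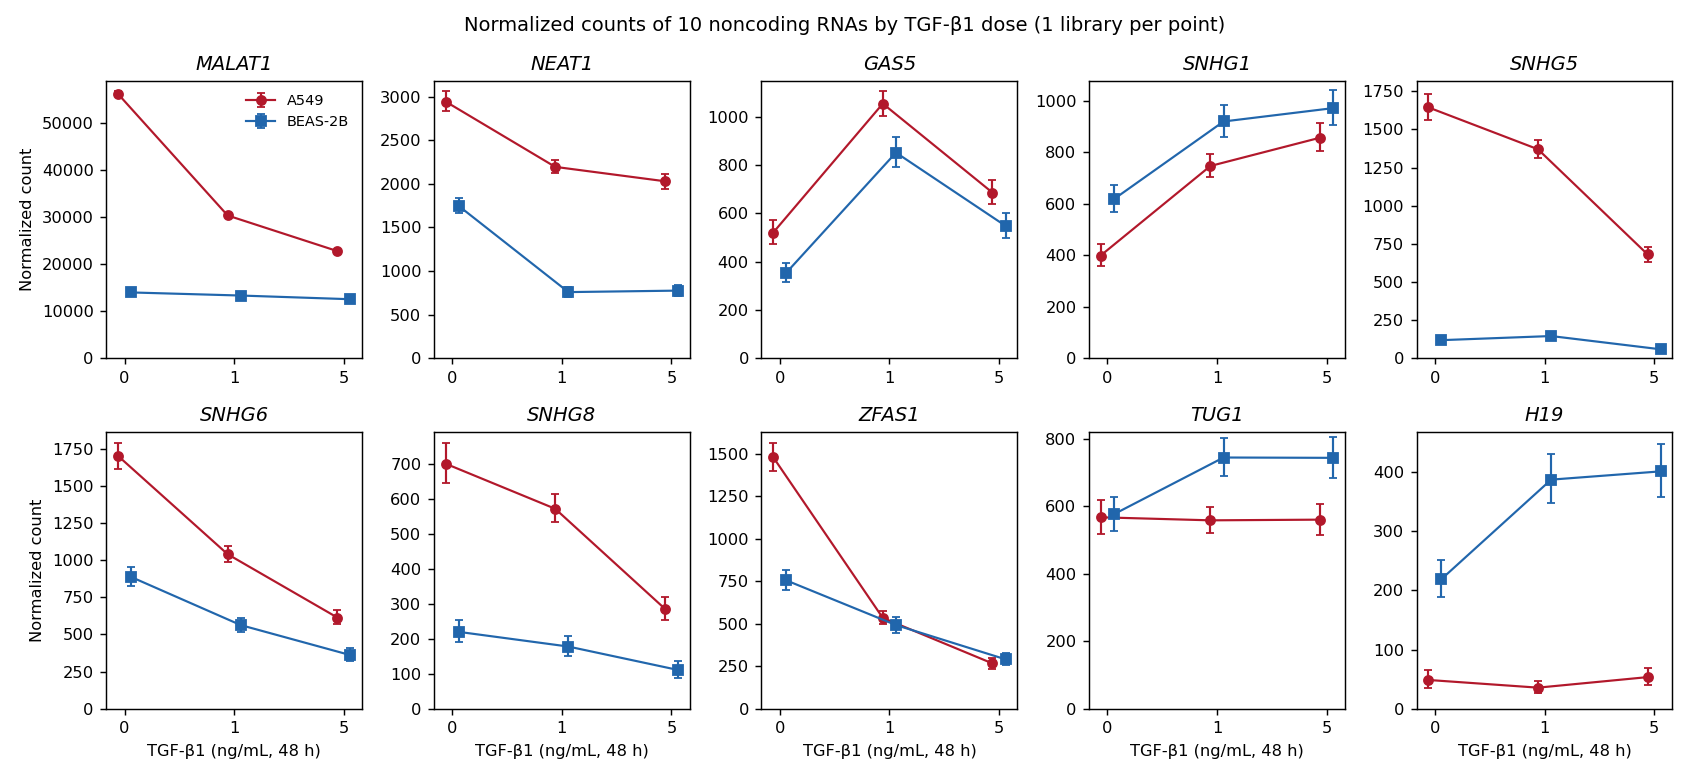
Normalized counts (linear axes from 0) of the 10 RNAs over 0, 1 and 5 ng/mL TGF-β1 in A549 (red circles) and BEAS-2B cells (blue squares). Each point is 1 library and bars are 95% counting intervals. SNHG6, SNHG8 and ZFAS1 are lower at each higher dose in both lines. For SNHG8 in BEAS-2B cells, the step from 0 to 1 ng/mL lies within counting error. GAS5 is highest at 1 ng/mL in both lines. MALAT1 drops from 56222 to 22772 in A549 cells while staying between 12533 and 13977 in BEAS-2B cells.

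MALAT1 was the most counted entry of the A549 control library, and it fell in A549 cells at 5 ng/mL but not past the FC limit in BEAS-2B cells. The MALAT1 gene lies on chromosome 11 from 65497688 to 65506516 on the plus strand (GENCODE, GRCh38). Its normalized counts in A549 cells were 56222 at 0, 30350 at 1 and 22772 at 5 ng/mL. In BEAS-2B cells, they were 13977, 13318 and 12533 at the same doses. All 3 A549 libraries thus lay above all 3 BEAS-2B libraries, and the gap between the lines narrowed with dose. The A549 ratios to control were 0.540 (0.533 to 0.547) at 1 and 0.405 (0.399 to 0.411) at 5 ng/mL, a log2 FC of -0.89 and -1.30. The BEAS-2B ratio at 5 ng/mL was 0.897 (0.873 to 0.921), a log2 FC of -0.16. The log2 FC at 5 ng/mL differed by -1.15 between the lines, with an interval of the difference, A549 minus BEAS-2B, from -1.19 to -1.10. Intervals of such differences are approximate (normal, on the log scale, without the added 1) and cover counting error only. As a share of all counts, MALAT1 made up 1.17% (Wilson interval 1.16 to 1.18) in the A549 control and 0.411% (0.406 to 0.416) at 5 ng/mL, where its rank by count was 18 instead of 1.

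NEAT1 fell in BEAS-2B cells at both doses and stayed under the FC limit in A549 cells. Its gene lies on chromosome 11 from 65422774 to 65445540, on the same strand as MALAT1 and next to it. The normalized counts of NEAT1 were 2945, 2195 and 2030 in A549 cells without and with 1 and 5 ng/mL. The BEAS-2B values were 1747, 758 and 775. The BEAS-2B control was the lone BEAS-2B library above 1000, and the 1 and 5 ng/mL libraries there did not differ beyond counting error (ratio 1.02, 0.914 to 1.14). Against control, NEAT1 in BEAS-2B cells was at 0.434 (0.396 to 0.476) at 1 ng/mL and at 0.443 (0.403 to 0.487) at 5 ng/mL. In A549 cells, it was at 0.745 (0.707 to 0.785) and 0.689 (0.651 to 0.730). The difference between the lines in log2 FC at 5 ng/mL, A549 minus BEAS-2B, was 0.64 with a counting interval from 0.48 to 0.79. The 2 forms of NEAT1, of which the long one is needed for paraspeckles, share 1 symbol and could not be separated.

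Proteins of the structures that MALAT1 and NEAT1 belong to were compared as lists. Of 11 nuclear speckle proteins, 2 fell in A549 cells at 5 ng/mL and 1 in BEAS-2B cells, and none rose. Of all genes tested, 33.3% passed in A549 cells (17.1% downward) and 19% in BEAS-2B cells (11.6% downward). The median log2 FC of the speckle proteins was -0.18 and -0.05, beside 0.11 and 0.03 over all genes tested. SRSF1, a splicing factor of the SR family, fell in both lines (log2 FC -2.0 and -1.78), and SRSF2 fell in A549 cells (-1.15). Of 14 paraspeckle proteins, 12 were tested in A549 cells, of which RBMX rose (1.39) and NUDT21 (-1.40) and HNRNPH3 (-1.37) fell. None of the 13 tested in BEAS-2B cells passed.

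**Figure D2:**
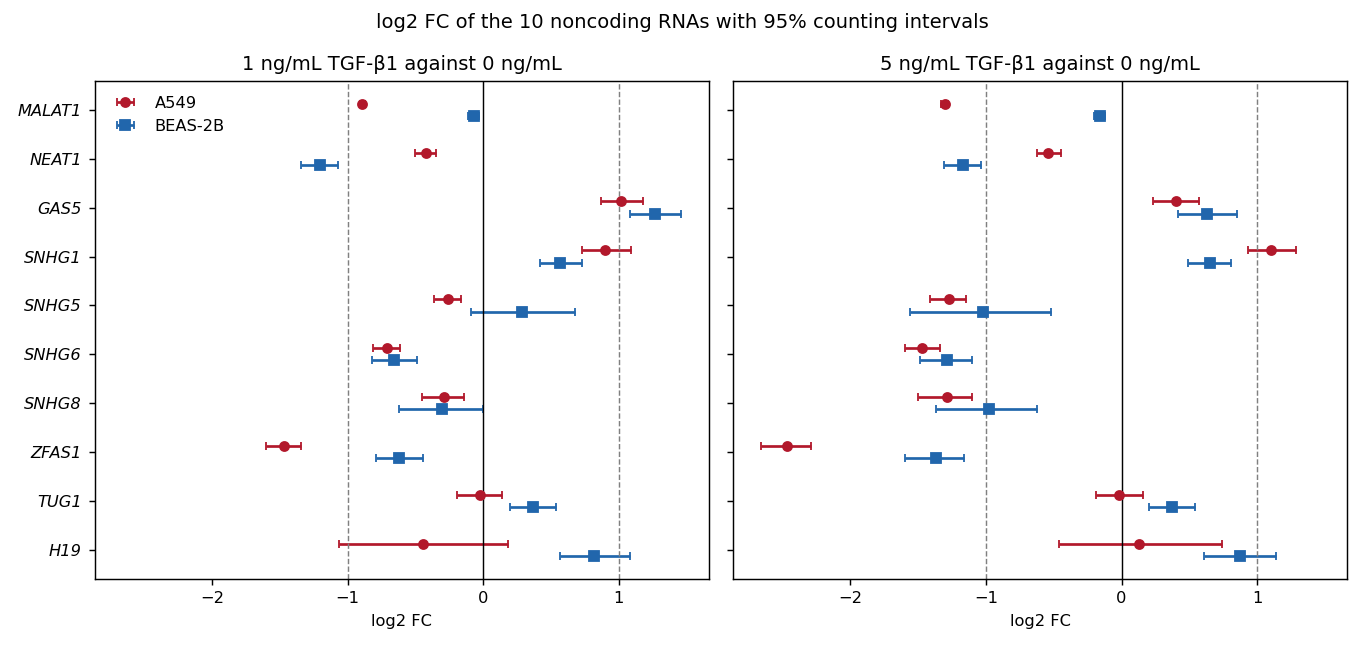
log2 FC (x axis) of each RNA at 1 (left) and 5 ng/mL TGF-β1 (right) against the control of its line, in A549 (red circles) and BEAS-2B cells (blue squares), with 95% counting intervals and dashed lines at an FC of 2. At 5 ng/mL, SNHG5, SNHG6, SNHG8 and ZFAS1 lie left of 0 and GAS5 and SNHG1 right of 0 in both lines, whereas MALAT1 is at -1.30 in A549 and -0.16 in BEAS-2B cells.

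The 6 snoRNA hosts did not move as 1 group. At 5 ng/mL, SNHG5, SNHG6, SNHG8 and ZFAS1 were lower than control in both lines and GAS5 and SNHG1 higher, whether or not they passed the selection. The median log2 FC of the 6 hosts was -1.28 in A549 and -1.0 in BEAS-2B cells at 5 ng/mL, beside 0.11 and 0.03 over all genes tested. At 1 ng/mL, it was -0.28 and -0.01.

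ZFAS1, the host of SNORD12, SNORD12B and SNORD12C, had the lowest log2 FC of the 10 RNAs in A549 cells. It is encoded on chromosome 20 from 49278178 to 49295738 (plus strand). ZFAS1 had normalized counts of 1482, 535 and 267 in A549 cells from 0 to 5 ng/mL. The BEAS-2B values were 756, 493 and 291. The lines started 1.96-fold apart (1.78 to 2.15) and at 5 ng/mL no longer differed beyond counting error (BEAS-2B over A549 1.09, 0.914 to 1.30). The ratio to control at 5 ng/mL was 0.180 (0.158 to 0.204) in A549 and 0.385 (0.330 to 0.447) in BEAS-2B cells, a log2 FC of -2.47 and -1.37. At 1 ng/mL, the log2 FC was -1.47 in A549 and -0.62 in BEAS-2B cells, of which the first passed. The log2 FC at 5 ng/mL differed between the lines by -1.10 (-1.38 to -0.81), A549 minus BEAS-2B. ZNFX1, which overlaps the 5′ end of ZFAS1 on the other strand by 249 bases, had 511, 1488 and 1605 counts in A549 and 1231, 1712 and 1297 in BEAS-2B libraries, higher where ZFAS1 was lower in A549 cells. With the ZNFX1 counts added, the log2 FC at 5 ng/mL was -0.27 in A549 and -0.15 in BEAS-2B cells, and neither passed the selection. At this dose, ZNFX1 had 546% (A549) and 561% (BEAS-2B) as many counts as ZFAS1. The sum thus mostly follows ZNFX1 and cannot show whether ZFAS1 alone fell.

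SNHG6, which hosts SNORD87, fell at 5 ng/mL in both lines by nearly the same factor. It is encoded on chromosome 8 from 66921684 to 66926398 (minus strand). Its normalized counts were 1702, 1040 and 614 in A549 cells and 887, 563 and 361 in BEAS-2B cells, by rising dose. Each dose step lowered the count in both lines beyond counting error. The ratio to control at 5 ng/mL was 0.361 (0.329 to 0.396) in A549 and 0.408 (0.355 to 0.467) in BEAS-2B cells. The counting interval of the difference in log2 FC, -0.41 to 0.06 (A549 minus BEAS-2B), included 0. MCMDC2 overlaps the 3′ end of SNHG6 on the other strand by 365 bases, had 27.5% to 75.9% as many counts, and whether reads were counted by strand is not given in the sources used here. With the MCMDC2 counts added, the log2 FC at 5 ng/mL was -1.01 in A549 and -0.94 in BEAS-2B cells, the latter under the FC limit.

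SNHG8, the host of SNORA24, fell in A549 cells at 5 ng/mL and came close to the limit in BEAS-2B cells. It is encoded on chromosome 4 from 118278709 to 118279823 (plus strand). SNHG8 had normalized counts of 701, 572 and 286 in A549 cells and 220, 178 and 111 in BEAS-2B cells. Every A549 library was above every BEAS-2B library. The ratio at 5 ng/mL was 0.408 (0.355 to 0.468) in A549 and 0.504 (0.388 to 0.652) in BEAS-2B cells, a log2 FC of -1.29 and -0.98. In A549 cells, SNHG8 at 1 ng/mL was at 0.816 (0.734 to 0.908) of control, and at 5 ng/mL it was at 0.499 (0.437 to 0.569) of its level at 1 ng/mL. In BEAS-2B cells, the control and 1 ng/mL libraries did not differ beyond counting error (control over 1 ng/mL 1.24, 0.997 to 1.53).

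SNHG5, the host of SNORD50A and SNORD50B, was the RNA with the largest difference between the untreated lines. SNHG5 is encoded on chromosome 6 from 85660950 to 85678748 (minus strand). Its normalized counts were 1645, 1370 and 680 in A549 cells from 0 to 5 ng/mL. The BEAS-2B values were 118, 145 and 57.9, from raw counts of 106, 129 and 46. SNHG5 was 13.9-fold (11.4 to 17.1) higher in the A549 than in the BEAS-2B control. At 5 ng/mL, its ratio to control was 0.413 (0.378 to 0.452) in A549 and 0.490 (0.339 to 0.699) in BEAS-2B cells, the latter without passing the ND minimum. Between 1 and 5 ng/mL in BEAS-2B cells, SNHG5 fell with a ratio of 0.399 (0.279 to 0.563), as the only one of the 10 RNAs to pass in that comparison, where 0.904% of 6306 genes passed (0.492% upward, 0.412% downward). The SNORD50A entry held 24, 183 and 162 raw counts in A549 and 37, 70 and 169 in BEAS-2B libraries, by rising dose, which was lower in both controls than in the treated libraries. This was not particular to SNHG5, as SNORD26 of SNHG1 held 12, 64 and 69, and 10, 16 and 68 counts. SNORA24 of SNHG8 held 1, 14 and 47, and 1, 5 and 0, whereas SNORD81 of GAS5 held 9, 9 and 5, and 11, 5 and 3. These counts are not scaled for library size. The 25 snoRNA entries of the 6 hosts held 1119 counts over all 6 libraries, and the 3 of ZFAS1 held 1. Whether such reads stand for the mature snoRNA was not tested.

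GAS5, named for its rise in growth-arrested cells and host of a large set of SNORD snoRNAs, was highest at 1 ng/mL in both lines. The gene lies on chromosome 1 from 173863900 to 173868882 (minus strand). Its normalized counts were 520, 1055 and 686 in A549 cells from 0 to 5 ng/mL. The BEAS-2B values were 354, 852 and 548. Both lines thus had the lowest level in the control, the highest at 1 ng/mL and a level between them at 5 ng/mL. GAS5 rose at 1 ng/mL with a ratio of 2.03 (1.82 to 2.26) in A549 and 2.41 (2.11 to 2.76) in BEAS-2B cells, the A549 value lying just past the limit (a log2 FC of 1.02, and 0.98 with DESeq2 size factors). From 1 to 5 ng/mL, the ratio was 0.650 (0.595 to 0.710) in A549 and 0.643 (0.570 to 0.725) in BEAS-2B cells, and at 5 ng/mL GAS5 stood at a log2 FC of 0.40 and 0.63. GAS5-AS1, a gene on the other strand that overlaps the 3′ end of GAS5 by 42 bases, had 38.8% to 66.3% as many counts as GAS5. With the GAS5-AS1 counts added, the log2 FC at 1 ng/mL was 1.05 in A549 and 1.44 in BEAS-2B cells.

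SNHG1, the host of SNORD25 to SNORD31, was the 1 host to rise at 5 ng/mL, in A549 cells. The gene lies on chromosome 11 from 62851988 to 62855914 (minus strand). Its normalized counts were 399, 747 and 857 in A549 cells and 618, 920 and 972 in BEAS-2B cells, by rising dose. Both controls were below all 4 treated libraries. The ratio at 5 ng/mL was 2.15 (1.90 to 2.44) in A549 and 1.57 (1.41 to 1.76) in BEAS-2B cells, a log2 FC of 1.10 and 0.65. Scaled by total counts, the A549 value was 0.90 and did not pass. The difference between the lines was 0.45 (0.21 to 0.69), A549 minus BEAS-2B.

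The make-up of the summed counts of the 6 hosts needs no scaling, but as the shares add up to 100%, it shows no direction of a single RNA. These sums were 5566, 7743 and 3736 in A549 and 2647, 2800 and 1859 in BEAS-2B libraries. GAS5 and SNHG1 together made up 14.2% (Wilson interval 13.4 to 15.2) of these counts in the A549 control, 33.9% (32.8 to 34.9) at 1 ng/mL and 45.5% (43.9 to 47.1) at 5 ng/mL. In BEAS-2B cells, their share was 32.9% (31.1 to 34.7), 56.2% (54.4 to 58.1) and 64.9% (62.7 to 67.1). GAS5 alone had 8.07%, 19.8% and 20.2% in A549 and 12%, 27.0% and 23.4% in BEAS-2B libraries by rising dose, and SNHG1 alone 6.18%, 14% and 25.3% in A549 and 20.9%, 29.2% and 41.5% in BEAS-2B libraries. ZFAS1 went from 23.0% to 7.87% in A549 and from 25.6% to 12.4% in BEAS-2B cells between 0 and 5 ng/mL. The 6 hosts together took 0.134% of all counts in the A549 control and 0.0612% at 5 ng/mL, and 0.0622% and 0.0451% in BEAS-2B cells.

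**Figure D3:**
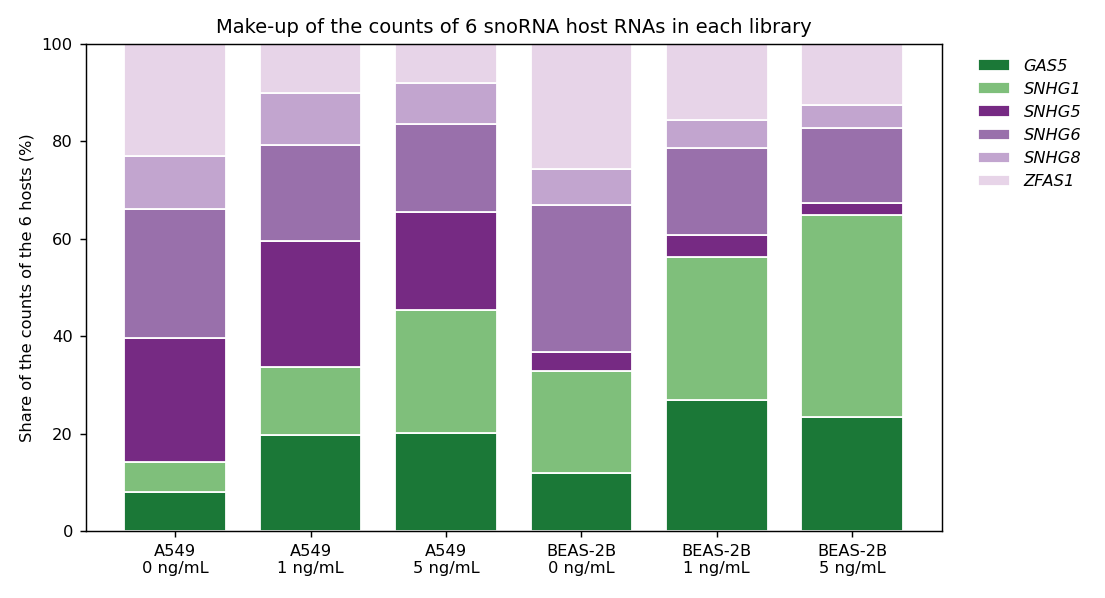
Share (%) of each of the 6 snoRNA hosts in their summed counts, 1 bar per library, each adding up to 100%. The green parts, GAS5 and SNHG1, together go from 14.2% to 45.5% in A549 and from 32.9% to 64.9% in BEAS-2B cells between 0 and 5 ng/mL TGF-β1, and the thin dark purple part in BEAS-2B cells is SNHG5.

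TUG1, a long noncoding RNA transcribed from a bidirectional promoter, was the steadiest of the 10 RNAs. The gene lies on chromosome 22 from 30969245 to 30979395 (plus strand). TUG1 had normalized counts of 567, 558 and 560 in A549 cells from 0 to 5 ng/mL. The BEAS-2B values were 576, 744 and 743. The 3 A549 libraries and the BEAS-2B control did not differ beyond counting error between neighbours in level, and the 2 treated BEAS-2B libraries stood above them. The BEAS-2B ratio was 1.29 (1.15 to 1.46) at 5 ng/mL, under the FC limit.

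H19, an imprinted RNA of fetal and growing tissues, was low in A549 cells and above the ND minimum in all 3 BEAS-2B libraries. It is therefore not abundant in A549 cells, where it ranked 8572 to 9893 by count. The gene lies on chromosome 11 from 1995176 to 2001470 (minus strand). The counts of H19 in A549 cells were 42, 52 and 59, or 48.7, 35.7 and 53.5 after normalization. In BEAS-2B cells, the normalized counts were 219, 387 and 401. The BEAS-2B control exceeded the A549 control 4.49-fold (3.21 to 6.43). The BEAS-2B ratio to control was 1.77 (1.48 to 2.12) at 1 and 1.83 (1.53 to 2.20) at 5 ng/mL, close under the FC limit. IGF2, the imprinted growth factor gene next to H19, rose in A549 cells from a normalized count of 54.5 to 444 at 1 and 358 at 5 ng/mL (log2 FC 3.0 and 2.7). In BEAS-2B cells, the normalized counts of IGF2 were 55.8, 117 and 90.7, all under the ND minimum. The list held 13 genes, mostly imprinted genes and RNA-binding proteins known to bind H19. At 5 ng/mL, 2 of 10 tested rose and 2 fell in A549 cells, where 33.3% of all genes passed. In BEAS-2B cells, where 19% passed, 1 of 8 rose and 1 fell. These were HMGA2, a chromatin protein of embryonic growth (log2 FC 2.08), and the imprinted gene MEST (-1.24).

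Before treatment, the lines already differed in 4 of the 10 RNAs by the same selection, where 37.0% of 7329 genes passed (18.1% higher and 18.9% lower in A549 cells). MALAT1 was 4.02-fold (3.94 to 4.10), SNHG8 3.19-fold (2.71 to 3.77) and SNHG5 13.9-fold higher in A549 cells, and H19 was lower there. ZFAS1 and SNHG6 were 1.96-fold and 1.92-fold higher, NEAT1 1.69-fold and GAS5 1.47-fold higher, SNHG1 lay at 0.645 of its BEAS-2B level, and TUG1 at 0.984 (0.868 to 1.12).

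Other snoRNA hosts were read from a list of 24 long noncoding hosts, of which 21 were in the files. In A549 cells at 5 ng/mL, 11 were tested, of which 1 rose and 2 fell, with a median log2 FC of 0.04. In BEAS-2B cells, 10 were tested, of which 2 fell, with a median of 0.08. SNHG7 (log2 FC -2.61 and -1.43) and SNHG32, listed as C6orf48 (-2.23 and -1.89), fell in both lines, and SNHG25 rose in A549 cells (1.12). The medians lay near those of all genes tested (0.11 and 0.03), of which 33.3% passed in A549 and 19% in BEAS-2B cells.

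Ribosomal protein mRNAs carry TOP tracts. Of 77 ribosomal protein genes, 11 rose and 13 fell in A549 cells at 5 ng/mL, where 33.3% of all genes passed, with a median log2 FC of 0.24. In BEAS-2B cells, where 19% of all genes passed, 0 rose and 3 of 76 fell, with a median of 0.15. RPL36A (1.46) and RPL35 (1.44) rose in A549 cells, RPL15 (-6.23) fell there, and RPL4 fell in both lines (-1.97 and -1.37). The RPL15 entry was low, with 298, 32 and 4 counts in A549 and 15, 10 and 24 in BEAS-2B libraries by rising dose. Of 16 tested translation factors and like genes, 3 rose and 2 fell in A549 cells and 1 fell in BEAS-2B cells. EEF1A1, the elongation factor that brings aminoacyl-tRNAs to the ribosome, fell in both (-3.27 and -2.12).

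Of the factors that bind snoRNAs or destroy host RNAs, NOP10, a core protein of H/ACA snoRNPs, fell in both lines (log2 FC -3.39 and -2.16), as did EIF4A3 of the exon junction complex (-2.84 and -2.38) and SMG8 of the decay machinery (-1.59 and -1.86). Among 10 tested snoRNP proteins, DKC1 rose in A549 cells (1.02), whereas RUVBL1 (-1.03) and NOP58 (-1.02) fell there. Among the 12 decay factors tested in A549 cells, SMG9 (1.46) and RBM8A (1.06) rose, and SMG1 rose in BEAS-2B cells (1.01). The median of the decay factors was 0.44 in A549 and 0.03 in BEAS-2B cells, and that of the snoRNP proteins 0.18 and 0.21. Of the 10 tested snoRNP proteins, 6 passed in neither direction in A549 and 9 in BEAS-2B cells. Among all genes tested, 33.3% passed in A549 and 19% in BEAS-2B cells. Other long noncoding RNAs included MEG3 (3.25) and CYTOR, listed as LINC00152 (2.80), which rose in A549 cells, 2 of the 7 tested there.

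**Figure D4:**
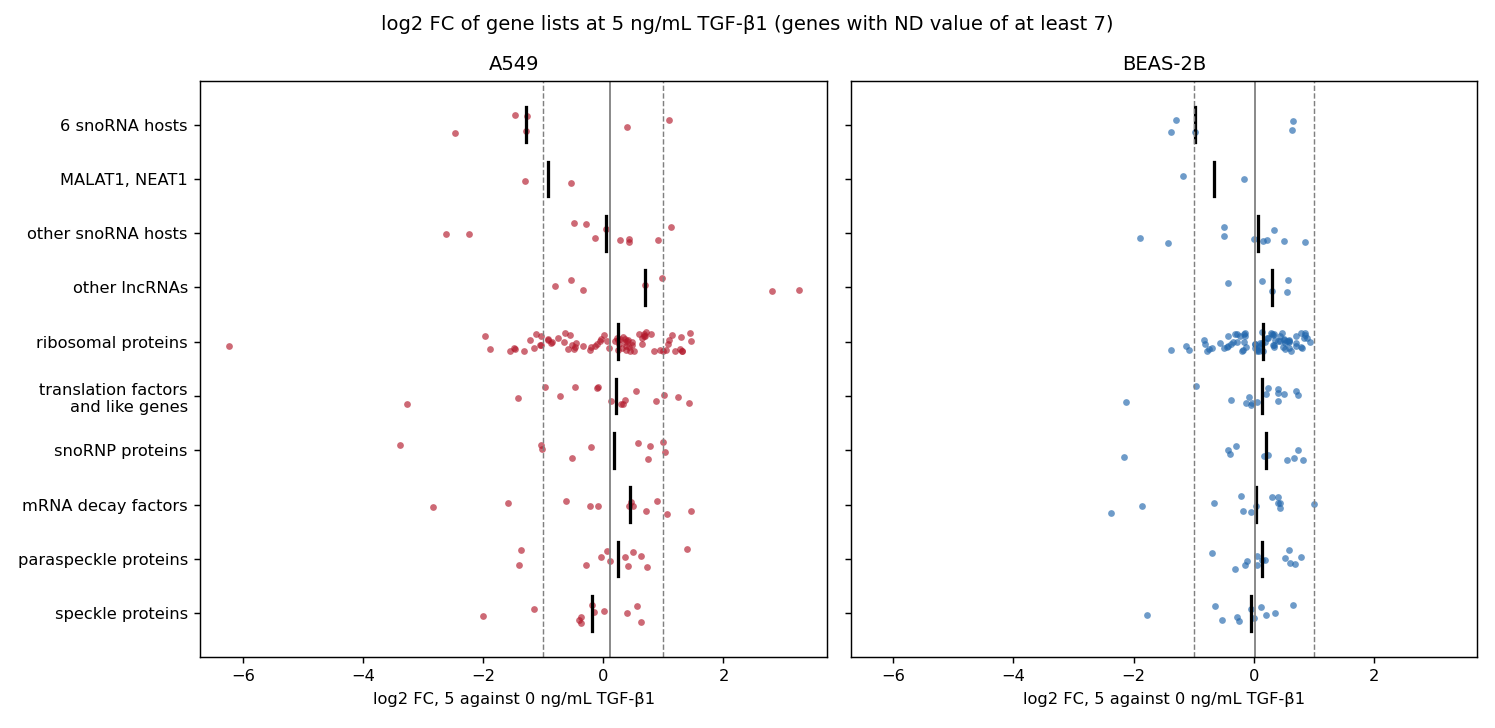
log2 FC at 5 ng/mL TGF-β1 against control (x axis) of the tested genes of each list (1 point per gene), in A549 (left) and BEAS-2B cells (right). Black bars are list medians, the grey line is the median of all genes tested (0.11 and 0.03) and dashed lines mark an FC of 2. The 6 hosts have a median of -1.28 in A549 cells, against 0.04 for the other snoRNA hosts and 0.24 for the ribosomal protein genes.

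The genes whose pattern over the 6 libraries was most like that of each RNA were found by the root mean square (RMS) difference of the centred log2(normalized count + 1), among about 4197 genes whose ND value reached 7 in all 6 libraries. RPS7, a ribosomal protein gene, was nearest to SNHG6 (RMS 0.06), and its normalized counts of 4738, 2794 and 1682 in A549 and 2271, 1608 and 1042 in BEAS-2B cells stepped down likewise. RPS15 was nearest to SNHG1 (0.08) and RPL24 to GAS5 (0.17). MDH2, a mitochondrial malate dehydrogenase, was nearest to MALAT1 (0.17), LITAF to NEAT1 (0.15), PFN2 to ZFAS1 (0.18), SCD to SNHG8 (0.18), PPP2R2A to TUG1 (0.05) and TOX2 to H19 (0.27). SNHG5 had no gene within 0.50, the nearest being UGDH (0.54). These likenesses rest on 6 libraries and are descriptions.

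The FC in A549 cells at 5 ng/mL followed transcript GC content: the median log2 FC of 20 bins of genes ran from -0.27 to 0.84, against -0.08 to 0.20 in BEAS-2B cells. ZFAS1, with 55.7% GC, was at -2.82 relative to its bin in A549 cells, SNHG1 (43.1% GC) at 1.35 and MALAT1 (40.3% GC) at -1.07. The part of GC content or of a shared strand in the counts was not tested.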

How the data were processed

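The 6 libraries (A549 and BEAS-2B cells, each at 0, 1 and 5 ng/mL TGF-β1, 48 h) were grouped by their labels. The authors deposited whole-number counts per gene symbol without normalization, made from QuantSeq 3′-mRNA libraries. The submitters' processing notes name Bowtie2, bedtools and hg19, without versions, and the counting strand is not given in the sources used here. Positions and transcripts come from GENCODE and RefSeq on GRCh38, not from hg19, and describe the genes, not the counted intervals.

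Counts were scaled with TMM factors of edgeR 4.0.16 (R 4.3.3) over all entries. A count of 0 allows up to 3 counts, or 0.383 to 0.728 CPM per library. With 1 library per condition, no test was made within a line. Over both lines, edgeR's quasi-likelihood test was fitted with the cell line as a block and dose as a factor, to 13579 entries with at least 10 counts in at least 2 libraries. Other steps used Python 3.11.15, matplotlib 3.10.9, scipy 1.17.1, pandas 2.3.3 and numpy 2.4.6. The selection, its counting intervals and the fit over both lines were tested on simulated counts, and the remaining steps were not. The simulated counts for the selection varied by counting error alone, with large changes set in well-counted entries. They could not test the spread between cultures. Those for the fit held an assumed spread, the same for all genes, and changes equal in both lines. Alternatives were DESeq2 1.42.0 size factors, total counts, upper quartile factors, TMM within the line, a minimum of 10 counts, pseudocounts of 0.1 and 5, thinned libraries, FC limits of 1.5 and 3, the ND minimum in both libraries and log2(CPM + 1). The fit over both lines, removal of the GC trend and sums with overlapping genes were chosen after seeing the data.

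The members and lists were chosen with earlier results of these data known. All 10 members were named. Of each other list, up to 3 genes per direction and line with the largest log2 FC at 5 ng/mL were eligible, and of the pattern neighbours the 3 nearest. A symbol with several entries was read from its highest.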

Additional observations from a re-analysis of the deposited data

Results flagged for a closer look

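TUG1 was lower than control in both treated A549 libraries and higher in both treated BEAS-2B libraries. The log2 FC was -0.02 at 1 and -0.02 at 5 ng/mL in A549 cells, and 0.37 at both doses in BEAS-2B cells. The A549 values lay within counting error (ratio 0.985, 0.879 to 1.10, at 1 ng/mL and 0.988, 0.876 to 1.11, at 5 ng/mL), and at 5 ng/mL the A549 value was 0.01 with upper quartile factors and 0.23 with the GC trend removed. The counting interval of the difference between the lines at 5 ng/mL, -0.63 to -0.14, left out 0, but with 1 library per condition the difference was not tested.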

How the results depend on the processing

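Of 641 recomputed log2 FC values of single RNAs, 581 stayed within counting error of the reported value, 59 moved further and 1 reversed. Scaling by total counts shifted all genes at 5 ng/mL by -0.21 (A549) and -0.13 (BEAS-2B) and gave a host median of -1.49 at 5 and -0.44 at 1 ng/mL in A549 cells. It also gave 5 instead of 3 selected RNAs for BEAS-2B at 5 ng/mL. An FC limit of 1.5 gave 5, 5, 7, 5, 5 and 8 selected RNAs in A549 at 1 against 0 and 5 against 1 ng/mL, BEAS-2B at 5 against 0, 1 against 0 and 5 against 1 ng/mL, and between the controls (2, 2, 3, 2, 1 and 4 as reported). A limit of 3 left 1 of 6 (ZFAS1) in A549 at 5 ng/mL and 0 in the first 5 of these comparisons. For the selection, the share of all genes that passed was computed with the reported settings alone. Counts of selected RNAs at other limits or scalings thus have no such share beside them and do not show whether these RNAs stand out. At 1 ng/mL in A549 cells, DESeq2 size factors and thinned libraries left 1, since GAS5 lay at the limit, and total counts kept 2 but lost GAS5 (0.85) and gained MALAT1 (-1.06). Between 5 and 1 ng/mL in A549 cells, where SNHG5 and ZFAS1 were selected (3.4% of 6467 genes), DESeq2 size factors, upper quartile factors, TMM within the line and a minimum of 10 counts left 0, and a pseudocount of 5, thinned libraries and log2(CPM + 1) left 1. In the BEAS-2B comparison of these doses, SNHG5 was lost (0) with TMM within the line, thinned libraries, the ND minimum in both libraries and log2(CPM + 1). The ND minimum in both libraries left 2 between the controls. Summed with ZNFX1, ZFAS1 reversed between 5 and 1 ng/mL in A549 cells (0.15) and was at -0.27 and -0.15 (A549, BEAS-2B) at 5 against 0 ng/mL, not selected. At 5 ng/mL, ZNFX1 held most of the counts in these sums, so they mostly follow ZNFX1. The cause of these shifts was not tested. The labels give no replicate numbers to pair. In the fit with the lines as blocks, DESeq2 called 2 RNAs instead of 1 at 1 ng/mL and 6 instead of 4 at 5 ng/mL, no filter 1 and 5, and sums with overlapping genes 1 and 3. Of all genes, 379 and 1407 were called as reported at 1 and 5 ng/mL. DESeq2 called 811 and 1773, no filter 886 and 1874, and the sums 377 and 1415. Counts of 42 to 59 for H19 in A549 and 46 to 129 for SNHG5 in BEAS-2B cells limit what can be said of these.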
